A study of Mus musculus with 4 samples.

Results

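The genes described here are the expressed members of the mouse Zfp zinc finger series in alveolar type II (AT2) cells of the lung, the surfactant-making cells of the alveolus. They are the table's genes named Zfp with a number and at most 1 letter, 1 such gene left aside, that reached 1 FPKM (fragments scaled to transcript length and library total) in at least 2 of the 4 libraries. This holds for 275 of 356 such entries (77.2%) and for 11055 of the 22565 genes of the whole table (49.0%). FPKM values in these same libraries chose the members, so their levels are a description. The name Zfp marks genes for proteins with zinc-binding fingers and not a single gene family, and Zfp319 stands for 2 of the 275 entries.

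The study set AT2 cells labelled knockout (KO) against wild-type (WT) cells, all from untreated mice 6 months old and isolated by flow cytometry, with 2 libraries a group. The genotype field of KO replicate 1 names an Fbxo45 knockout, that of KO replicate 2 an Fbxo46 knockout, while the titles place both in KO and the growth protocol names only a conditional Fbxo45 knockout. The sources used here do not name the Cre driver, the deleted part or the number of animals. A p-value therefore sets the group difference against the scatter of these libraries within their groups, which is possibly only technical. Fbxo45, a substrate receptor of an E3 ubiquitin ligase, had 4.41 and 7.58 FPKM in the libraries labelled KO, against 4.60 and 5.91 FPKM in the WT libraries. Fbxo46 had 3.82 and 4.80 FPKM in the libraries labelled KO, against 4.13 and 3.79 FPKM in the WT libraries. Both genes overlapped between the groups, so neither level separates them, and the groups are called by their labels throughout.

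Depth was 9507431 and 7066424 fragments in the libraries labelled KO, and 4167114 and 8200174 in the WT libraries. The 7 AT2 markers summed to 80317 and 114843 FPKM in the libraries labelled KO, against 128521 and 122314 FPKM in WT. KO replicate 1 stood apart by 5 skeletal muscle genes (Acta1, Ckm, Myl1, Tnnt3 and Mylpf), which summed to 804 FPKM there and to 5.87 FPKM in KO replicate 2, against 0.159 and 8.14 FPKM in WT. Of the 5 T and B cell markers, 4 were at 0 in both libraries labelled KO, and 3 and 4 were at 0 in the WT libraries. In such bulk samples, fewer cells of a type and less RNA per cell cannot be told apart.

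A classical C2H2 zinc finger folds around a zinc ion, and arrays of such fingers read DNA base by base. Many mouse Zfp genes also encode a KRAB box, which recruits the corepressor Trim28 and, through it, the histone methyltransferase Setdb1, HP1 proteins and the NuRD complex to silence retroelements and imprinted loci. Such genes multiplied by local duplication and lie in clusters of close relatives. Zfp proteins without a KRAB box include promoter activators, chromatin complex subunits, ubiquitin ligases and RNA-binding proteins.

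Translation of the GENCODE M21 coding sequences, available for 272 members, found the letters of a KRAB A box in 120 members and not in 152. The search can miss degenerate boxes, and Zfp708 is a member without a match. Members said below to lack a KRAB box are those without these letters, and some may encode one. The proteins held a median of 10 C2H2 fingers, with 36 in Zfp142 and none in 7 members, among them Zfp36, whose fingers are of another type. Of the members, 165 lay within 200000 bases of another Zfp entry, 66 of the 275 on chromosome 7, 38 on chromosome 17 and 25 on chromosome 13. Among all Zfp entries with a coding sequence, 120 of 164 with the KRAB letters passed the level rule, and 152 of 187 without them.

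Most members were expressed at low levels. The median member averaged 4.61 FPKM over the 4 libraries (quartiles 2.47 and 8.77), against 10.4 FPKM over all genes tested. Of the members, 59 averaged 10 FPKM or more, 66 between 5 and 10, and 150 less than 5. The KRAB members were lower, with a median of 3.56 FPKM against 6.07 FPKM for those without a KRAB box. In fragments, the median member had 116 and 107 in the libraries labelled KO, and 57 and 123 in the WT libraries, so counting error was largest in WT replicate 1.

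**Figure D1:**
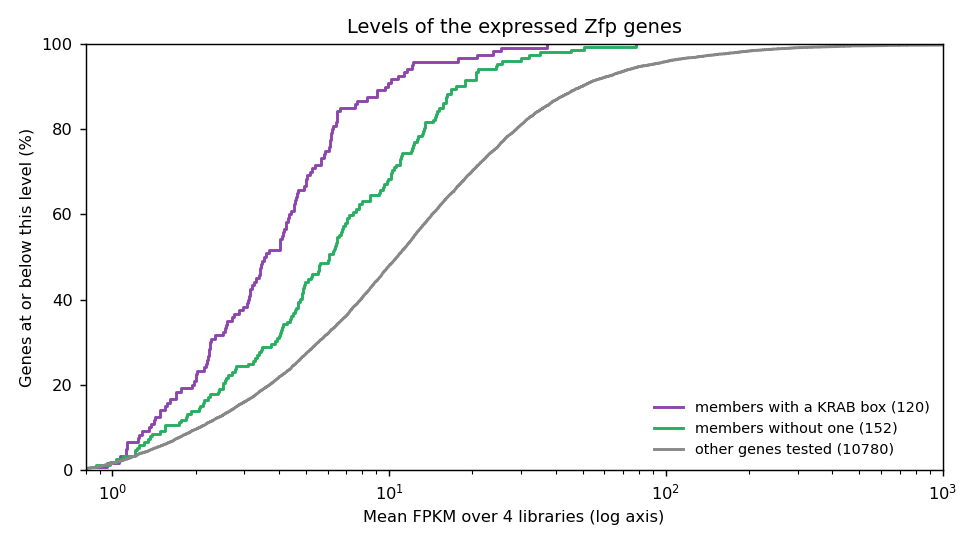
Cumulative share of genes (percent, vertical axis) at or below each mean FPKM over the 4 libraries (log horizontal axis), for members with a KRAB box, members without one, and the other genes tested. The curve of the 120 KRAB members lies furthest to the left, with a median of 3.56 FPKM, then that of the 152 members without a KRAB box at 6.07 FPKM.

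The highest member was Zfp36 (tristetraprolin), an RNA-binding protein that promotes decay of AU-rich messages, including that of Tnf. Its levels were 122.5 and 52.2 FPKM in the libraries labelled KO, against 82.5 and 54.3 FPKM in WT. KO replicate 1 was above both WT libraries and KO replicate 2 below both, so the groups overlapped. Zfp644, a partner of the G9a and GLP histone methyltransferases, had 54.7 and 58.4 FPKM in the libraries labelled KO and 47.1 and 41.9 FPKM in WT. Zfp207 (BuGZ), which binds the mitotic checkpoint protein Bub3, had 49.9 and 45.1 FPKM in the libraries labelled KO and 45.3 and 41.5 FPKM in WT. Zfp644 was higher in both libraries labelled KO than in both WT libraries in FPKM but overlapped in CPM, and Zfp207 overlapped in FPKM. The neighbours in this order, Zfp644 and Zfp207, overlapped in their ranges over the 4 libraries.

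Zfp266 was the highest KRAB member, with 35.3 and 43.8 FPKM in the libraries labelled KO and 33.1 and 36.8 FPKM in WT. Zfp106, a nuclear RNA-binding protein, had 34.5 and 38.8 FPKM in the libraries labelled KO and 30.03 and 37.1 FPKM in WT. Zfp280d had 24.2 and 47.2 FPKM in the libraries labelled KO and 29.1 and 27.5 FPKM in WT. These 3 members overlapped one another as well as between the groups, and Zfp91, an E3 ubiquitin ligase with fingers, followed at a mean of 30.05 FPKM as the last of 7 members at 30 FPKM or more.

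At the other end, 227 members reached 1 FPKM in all 4 libraries, 33 in 3 and 15 in 2. Through both libraries labelled KO alone, Zfp128 and Zfp354b qualified, and through both WT libraries alone, Zfp112 and Zfp937. Zfp354b, for example, had 1.64 and 1.21 FPKM in the libraries labelled KO and 0.666 and 0.759 FPKM in WT, but a choice by level had to separate these groups. Just inside the rule were Zfp553, Zfp455 and Zfp385a, whose second-highest values were 1.00, 1.02 and 1.03 FPKM. Just outside were Zfp689, Zfp354c and Zfp872 with 0.979, 0.977 and 0.977 FPKM. Of the 81 entries below the rule, 19 were at 0 in every library.

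Many members shared promoter words that the level rule did not use. RefSeq promoter windows (build GRCm38.p6, 250 bases before to 50 after the annotated start) were at hand for 230 members, with 283 windows in all. All words of 8 bases were counted on both strands, and ACTACATT had the largest surplus, in 33 of 283 member windows (11.7%) and in 1.38% of the 10760 windows of the other genes tested. Its 87 occurrences in member windows with at most 1 mismatch agreed on 4 more bases, which gave ACTACATTTCCC. These letters are known from background as a form of the element that Znf143 (mouse Zfp143) and Thap11 occupy. They were in 26 of 283 member windows (9.19%), in 1.15% of the windows of genes tested and in 0.505% of all 32851 windows in the RefSeq table. Among members, the share was similar with and without the KRAB letters, 8.73% and 9.68%. KRAB genes that the search missed may be in the second class, so the classes are not cleanly separated. The letters were picked from these windows, so the shares are a description.

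The windows below show the motif, in capitals, with 9 bases on each side, each read 5′ to 3′ on the strand that carries it. They are the KRAB members Zfp60, Zfp84 and Zfp790 and the members without the KRAB letters Zfp317, Zfp260 and Zfp111, the highest of each class to hold it, and the chromosome 13 neighbours Zfp595 and Zfp458, whose flanks can be compared.
Zfp60: gcactcggcACTACATTTCCCaggggctac
Zfp84: ttatagtggACTACATTTCCCagaaggcgg
Zfp790: cggccttgaACTACATTTCCCagaatacct
Zfp317: caactagaaACTACATTTCCCataaaccct
Zfp260: taactgtgaACTACATTTCCCagaagtctc
Zfp111: tcttttgggACTACATTTCCCagaatgcta
Zfp595: gtggtagggACTACATTTCCCacaagtcag
Zfp458: attgttgggACTACATTTCCCacaagtcag
The windows are at chr7:27731335-27731364 (plus strand) for Zfp60, chr7:29768520-29768549 (minus) for Zfp84, chr7:29815959-29815988 (minus) for Zfp790 and chr9:19621858-19621887 (plus) for Zfp317. The others are at chr7:30095038-30095067 (minus) for Zfp260, chr7:24208193-24208222 (plus) for Zfp111, chr13:67332591-67332620 (plus) for Zfp595 and chr13:67269152-67269181 (plus) for Zfp458, all in GRCm38.p6. Zfp595 and Zfp458 carry the same 9 bases after the motif, and paralogs in a cluster can inherit a motif from 1 ancestor. Of the 28 matches in 26 members, 11 were on chromosome 7 and 10 on chromosome 13. Of the matches, 22 read against the direction of their gene and 27 had their centre before the annotated start, at a median of 51 bases before it.

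Other promoter letters differed more between the KRAB members and the rest. The next word of 8 bases with no run of 5 in common with the motif was GTCACTCA. It was in 16.7% of KRAB windows and 4.52% of windows without a KRAB box. The share over all genes tested was 1.58%, with members included here and below. CCAAT was in 56.3% of KRAB windows, 34.8% of windows without a KRAB box and 37.3% of those of genes tested. GGGCGG, the GC box, was in 38.1% of KRAB windows, 52.3% of windows without a KRAB box and 63.9% of those of genes tested. TATAAA was in 6.71% of member windows and in 6.84% of those of genes tested. All were searched on both strands, and a match is not a site. The 26 members with ACTACATTTCCC had a median level of 2.51 FPKM, and the 204 members whose windows lacked it 4.62 FPKM. Their medians in the library comparison described further on were -0.26 in KO replicate 1 and 0.19 in KO replicate 2, against -0.23 and 0.18 for members without it. Zfp143 itself had 5.22 and 6.19 FPKM in the libraries labelled KO, against 5.79 and 5.15 FPKM in WT, and the groups overlapped.

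No member differed between the libraries labelled KO and WT at an adjusted p of 0.05 (edgeR's quasi-likelihood test on fragments, Benjamini-Hochberg adjustment over 11055 genes), where 0% of all genes tested were called. The smallest adjusted p among members was 0.999 and the smallest over all genes 0.444. In log2 differences (KO minus WT), 141 members were higher and 134 lower, with a median of 0.02, as over all genes (0.02). At an unadjusted p under 0.05, edgeR had 2 members higher (1.27% of all genes) and 3 lower (1.92% of all genes), together 1.82% of members against 3.18% of all genes. By limma on FPKM, 5 were higher (2.68% of all genes) and 4 lower (2.16%), and by DESeq2 0 were higher (0.868%) and 2 lower (1.22%). No member was called by DESeq2, with 0.0724% of all genes called, by edgeR without the level filter (0.0326%) or with the replicate number as a block (0.00905%).

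In CPM (recovered fragments scaled to a common library total), both libraries labelled KO lay above both WT libraries for 35 members (12.7%), where 16.4% of all genes did. They lay below for 46 members (16.7%), where 17.1% of all genes did. In FPKM, 43 members lay above (15.6%, against 20% of all genes) and 51 below (18.5%, against 15.1%). These shares of members without overlap were thus near or under those of all genes, apart from the lower side in FPKM.

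**Figure D2:**
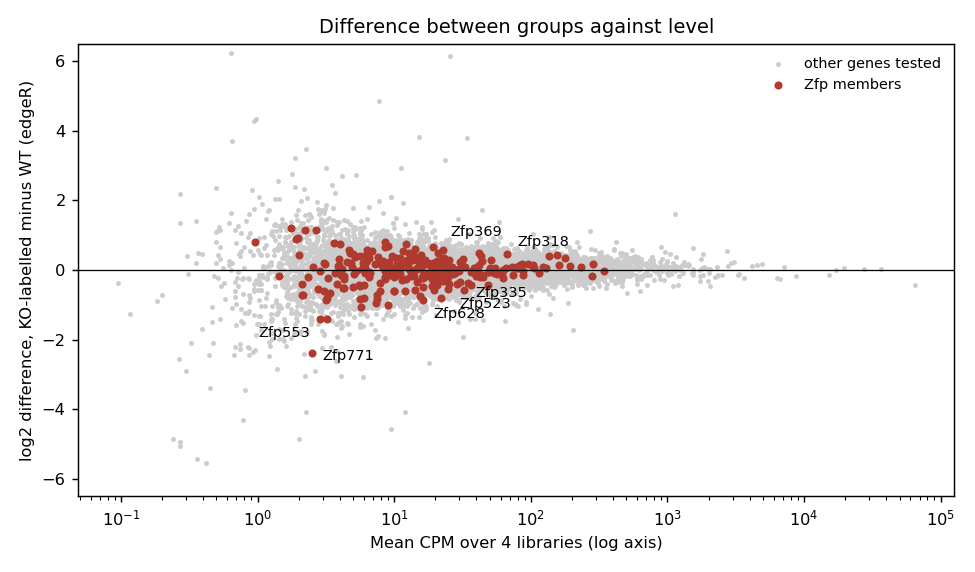
Log2 difference (KO minus WT, edgeR, vertical axis) against mean CPM over the 4 libraries (log horizontal axis) for 275 members in red and the other genes tested in grey, of which 7 fall outside the vertical range. The members spread around 0, with 141 above and 134 below, and those furthest from 0, such as Zfp771, have low CPM.

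Among the members with the smallest p on the higher side, Zfp318, a zinc finger protein needed for IgD expression in B cells, had 78.4 and 77.1 CPM in the libraries labelled KO, against 55.2 and 57.1 CPM in WT. Both libraries labelled KO were above both WT libraries, and the log2 difference was 0.47 ± 0.18 (SE, n = 2 libraries a group, edgeR adjusted p = 0.999). It lies at chr17:46383731-46420920 (plus strand, mm10), in a locus entry that the table gives to other genes as well, and was called without KO replicate 2, at 0.48 ± 0.15 (SE, edgeR adjusted p = 0.0322). In a fit without 1 library labelled KO, the WT pair alone gives the spread, and the lone library labelled KO is assumed to vary like it. Zfp369, a KRAB member at chr13:65278814-65304221 (plus strand), had 25.3 and 29.4 CPM in the libraries labelled KO, against 18.2 and 18.5 CPM in WT. Its groups did not overlap either, and its log2 difference was 0.58 ± 0.24 (SE). Zfp61 had 10.9 and 10.0 CPM in the libraries labelled KO, against 6.72 and 6.46 CPM in WT, a log2 difference of 0.68 ± 0.34 (SE) with no overlap. The other members at this end were Zfp280c, Zfp800, Zfp827 (whose human counterpart recruits NuRD to telomeres), Zfp948 and Zfp830 (a splicing-linked protein), with log2 differences between 0.39 for Zfp827 and 0.76 for Zfp948.

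On the lower side, Zfp628, at chr7:4915217-4922002 (plus strand), had 11.46 and 11.32 CPM in the libraries labelled KO, against 24.96 and 17.07 CPM in WT. The groups did not overlap, although the WT libraries were far apart, and the log2 difference was -0.87 ± 0.30 (SE, edgeR adjusted p = 0.999). Zfp523, a relative of Zfp143 at chr17:28177129-28205886 (plus strand), had 19.0 and 21.2 CPM in the libraries labelled KO, against 30.2 and 29.3 CPM in WT. Zfp335, a subunit of a histone H3 lysine 4 methyltransferase complex, had 28.6 and 23.8 CPM in the libraries labelled KO, against 35.8 and 42.2 CPM in WT. Both members were lower in each library labelled KO, by log2 differences of -0.56 ± 0.23 and -0.57 ± 0.23 (SE). After a smooth correction of each library for GC content and transcript length, Zfp628 was at -0.42 and Zfp335 at -0.34, while Zfp523 was at -0.53. Zfp628 was called without KO replicate 2, at -0.85 ± 0.28 (SE, edgeR adjusted p = 0.0485), and Zfp335 without KO replicate 1, at -0.71 ± 0.21 (SE, edgeR adjusted p = 0.0424). Zfp212, Zfp882, Zfp64, Zfp54 and Zfp771 followed, with log2 differences between -0.58 for Zfp212 and -2.39 for Zfp771. Zfp771 rested on few fragments, with 1.47 and 0 CPM in the libraries labelled KO, against 5.28 and 3.17 CPM in WT.

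**Figure D3:**
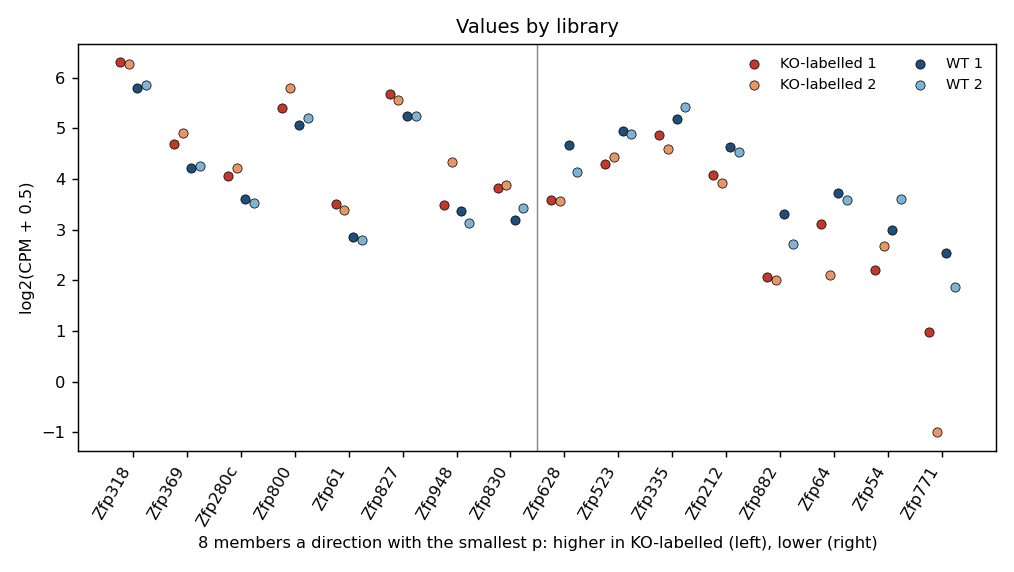
log2(CPM + 0.5) in each library (red shades for the libraries labelled KO, blue for WT) for the 8 members with the smallest unadjusted p on the higher side (left of the line) and the 8 on the lower side. The groups do not overlap for any of these 16 members, which were picked by p, and none has an adjusted p under 0.05.

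The 2 deposited units did not always give 1 picture, and 41 members had opposite signs on the fragment and FPKM scales. Zfp259 (Zpr1), a zinc finger protein that binds translation elongation factor eEF1A, had 13.4 and 17.0 CPM in the libraries labelled KO, against 9.60 and 12.9 CPM in WT. In FPKM it had 21.7 and 14.9 in the libraries labelled KO, against 5.43 and 8.76 in WT. Its log2 difference was 0.42 on fragments and 1.26 on log2(FPKM + 1), and the groups did not overlap on either scale. Zfp956 had 5.31 and 7.35 FPKM in the libraries labelled KO, against 3.38 and 3.43 FPKM in WT, but 8.94 and 10.8 CPM in the libraries labelled KO, against 10.6 and 10.7 CPM in WT. Its groups were apart in FPKM and overlapped in CPM. For Zfp61 the log2 difference was 1.23 on log2(FPKM + 1). FPKM depends on the transcript length assigned to a gene in each library, and the part of that step in these gaps was not tested.

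By role, none of the groups chosen from background knowledge held a called member, where 0% of all genes were called, and 53.0% of all genes had positive differences. Among 8 members that act on RNA or the ribosome, 5 had positive differences, but 3 without KO replicate 1, where Zfp36 was at -0.43 and the RNA-binding Zfp385a at -0.20. They include Zfp598, which marks collided ribosomes with ubiquitin, at 65.5 and 53.5 CPM in the libraries labelled KO and 60.5 and 66.1 CPM in WT, and Zfp622, a factor of large-subunit maturation, at 23.7 and 10.8 CPM in the libraries labelled KO and 24.5 and 22.7 CPM in WT. Zfp622 was low in KO replicate 2 alone. The double-stranded RNA-binding Zfp346 had 2.31 and 0.849 CPM in the libraries labelled KO, against 2.40 and 5.98 CPM in WT, few fragments in every library. Zfp36 had 259.3 and 97.1 CPM in the libraries labelled KO, against 160.8 and 106.1 CPM in WT, and the groups overlapped.

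Among 7 promoter- and GC-box-binding members, 5 had positive differences, from Zfp263 at 0.31 ± 0.24 to Zfp219 at -0.44 ± 0.24 (SE). After the correction for GC content and length, Zfp219 was at -0.05. Zfp148, a binder of GC-rich promoters, had 98.2 and 155.0 CPM in the libraries labelled KO, against 114.2 and 123.0 CPM in WT, so the libraries labelled KO enclosed both WT values. Zfp281, a relative of Zfp148, had 55.5 and 69.6 CPM in the libraries labelled KO, against 64.8 and 61.8 CPM in WT, which it likewise enclosed. Among 12 partners of chromatin complexes, 7 had positive differences. Zfp687 and Zfp592, partners of Zmynd8, had log2 differences of 0.16 ± 0.19 and 0.15 ± 0.22 (SE). Zfp503 and Zfp703, a related pair of developmental corepressors, had -0.42 ± 0.25 and -0.17 ± 0.25 (SE), with both libraries labelled KO below both WT libraries in each case. Neither value held in size after the correction for GC content and length, with -0.17 for Zfp503 and a positive 0.13 for Zfp703, and Zfp503 was at -0.18 without WT replicate 1 and at -0.65 without WT replicate 2. Zfp410, which activates the NuRD gene Chd4, had 19.8 and 3.11 CPM in the libraries labelled KO, against 16.8 and 22.1 CPM in WT. KO replicate 2 was alone in its low value, and Chd4 there was at 231.0 CPM, with 354.7 CPM in KO replicate 1, against 238.3 and 260.0 CPM in WT. In FPKM, Chd4 had 85.9 and 53.5 in the libraries labelled KO, against 44.0 and 47.7 in WT. For Chd4, KO replicate 2 was thus below both WT libraries in CPM and above both in FPKM.

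All 4 lineage regulators that were members (Zfp318, Zfp292, Zfp467 and Zfp395) and 5 of 6 members of the retroelement and imprint group had positive differences, where 53.0% of all genes did. Of the lineage regulators, 3 were positive in each fit without KO replicate 1, KO replicate 2 or WT replicate 2. Zfp467 was at -0.17 without KO replicate 1. Without KO replicate 2, Zfp809 was the 1 positive member of the second group, and Zfp445, Zfp57, Zfp932, Zfp568 and Zfp708 were between -0.31 and -0.11. Zfp809, which silences murine leukaemia virus sequences, had 19.8 and 15.7 CPM in the libraries labelled KO, against 12.7 and 15.6 CPM in WT, values that nearly met. Zfp57 and Zfp445, which keep methylation at imprinted loci, had log2 differences of -0.11 ± 0.31 and 0.07 ± 0.22 (SE), with groups that overlapped. Zfp708 shared 97.8% of its sampled 100-base stretches with other genes, so its fragments could have been assigned elsewhere. More than 25% was shared by 7 members in all, and none by 200.

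The libraries labelled KO differed from each other more than the WT libraries did, and the members carried this difference in 1 direction. Each library was expressed as log2(CPM + 0.5) minus the WT mean, relative to the median of all genes tested. On this scale the median member was at -0.20 in KO replicate 1 and, on the other side, at 0.17 in KO replicate 2, against -0.03 in WT replicate 1 and 0.03 in WT replicate 2. KO replicate 1 was lower than KO replicate 2 for 190 of 275 members (69.1%), where 50% of all genes were. It was below both WT libraries for 162 members (58.9%, against 39.3% of all genes). KO replicate 2 was above both WT libraries for 148 members (53.8%, against 39.2%). Both held at once for 91 members (33.1%, against 16% of all genes), and the opposite arrangement for 20 (7.27%, against 17.1%). A mean over the libraries labelled KO therefore averaged values on either side of WT. Across members, Pearson's r of log2(CPM + 1) was 0.892 between the libraries labelled KO and 0.971 between the WT libraries. Over all genes tested it was 0.934 and 0.980, so the lower value between the libraries labelled KO was not particular to members. This is a description over genes, which are not replicates.

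The gap was wider for the members with a KRAB box. In KO replicate 1 they had a median of -0.39, and KO replicate 2 had 0.34, against -0.05 and 0.05 in WT. Members without a KRAB box had medians of -0.11 and 0.03 in the libraries labelled KO, against -0.01 and 0.01 in WT. KO replicate 1 was lower than KO replicate 2 for 97 of 120 KRAB members (80.8%) and for 90 of 152 others (59.2%). In levels, the median KRAB member had 2.70 and 4.95 FPKM in the libraries labelled KO, against 3.41 and 3.84 FPKM in WT, and the KRAB members summed to 1650 and 2399 CPM in the libraries labelled KO, against 1941 and 2057 CPM in WT. KO replicate 1 was the lowest and KO replicate 2 the highest of the 4 libraries in both measures. For the members without a KRAB box the sums were 5750 and 6019 CPM in the libraries labelled KO, against 5781 and 5739 CPM in WT.

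**Figure D4:**
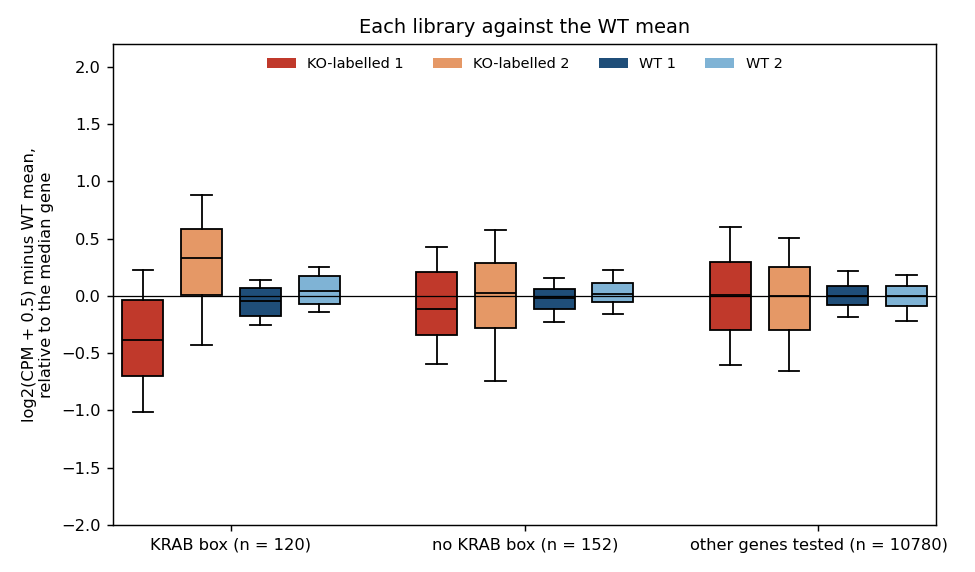
Each library's log2(CPM + 0.5) minus the WT mean, relative to the median gene tested (vertical axis), for 120 members with a KRAB box, 152 without one and 10780 other genes tested, with the libraries labelled KO in red shades and WT in blue. Boxes span the quartiles with the median as a line, and whiskers the 10th to 90th percentile. The KRAB boxes of KO replicate 1 (median -0.39) and KO replicate 2 (median 0.34) lie on opposite sides of the WT libraries.

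The gap between the libraries labelled KO (replicate 2 minus replicate 1, of the medians) widened with the number of fingers. It was 0.11 in log2 for the 43 members with 0 to 4 fingers, 0.31 for 5 to 9, 0.51 for 10 to 14 and 0.54 for 15 or more. It was 0.54 for the 165 members near another Zfp entry and 0.21 for the 110 that were not. By chromosome, it was 1.01 for the 38 members on chromosome 17, 0.74 for the 25 on chromosome 13 and 0.20 for the 66 on chromosome 7. Fingers, KRAB box, position and base composition go together in these genes, and their parts were not separated.

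Zfp53, a KRAB member on chromosome 17 with 15 fingers, had the widest gap in the direction of most members, among those with at least 20 fragments in every library, and was named after its values were seen, as are the others here. It had 4.63 and 25.3 CPM in the libraries labelled KO, against 13.7 and 11.1 CPM in WT. Zfp52, on the same chromosome, had 2.42 and 12.3 CPM in the libraries labelled KO, against 5.28 and 6.10 CPM in WT. Zfp867 had 3.58 and 18.3 CPM in the libraries labelled KO, against 6.00 and 6.34 CPM in WT. Zfp235, without the KRAB letters, had the next widest gap after Zfp53. It had 2.73 and 14.4 CPM in the libraries labelled KO, against 6.00 and 7.07 CPM in WT, at a GC content of 49.4%. In Zfp53, Zfp52, Zfp867 and Zfp235, KO replicate 1 was below and KO replicate 2 above both WT libraries. The gap ran the other way for Zfp36 and Zfp410 (values above) and for Zfp362, which had 41.2 and 17.7 CPM in the libraries labelled KO, against 30.72 and 29.999 CPM in WT.

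GC content moved with this pattern. The members' longest transcripts had a median GC content of 44.5%, with 41.6% for KRAB members and 48.8% for those without a KRAB box, against 49.8% for all genes tested. In the lowest of 4 equal GC classes (up to 44.9%), the 145 members had medians of -0.35 in KO replicate 1 with 0.34 in KO replicate 2, and the 2599 other genes -0.06 and 0.25. In KO replicate 2 the other AT-rich genes were thus above the WT mean too, while in KO replicate 1 the other AT-rich genes were close to the WT mean. In the highest class (from 54.5%), the 41 members had -0.07 and -0.39, and the 2703 other genes -0.07 and -0.26. Within the lowest class, the 91 KRAB members had -0.46 and 0.43, and the 52 members without a KRAB box -0.19 and 0.22. In the second class the order was the other way, with -0.05 and -0.01 for 20 KRAB members and -0.12 and 0.10 for 30 without a KRAB box, and the upper classes held only 6 and 3 KRAB members.

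**Figure D5:**
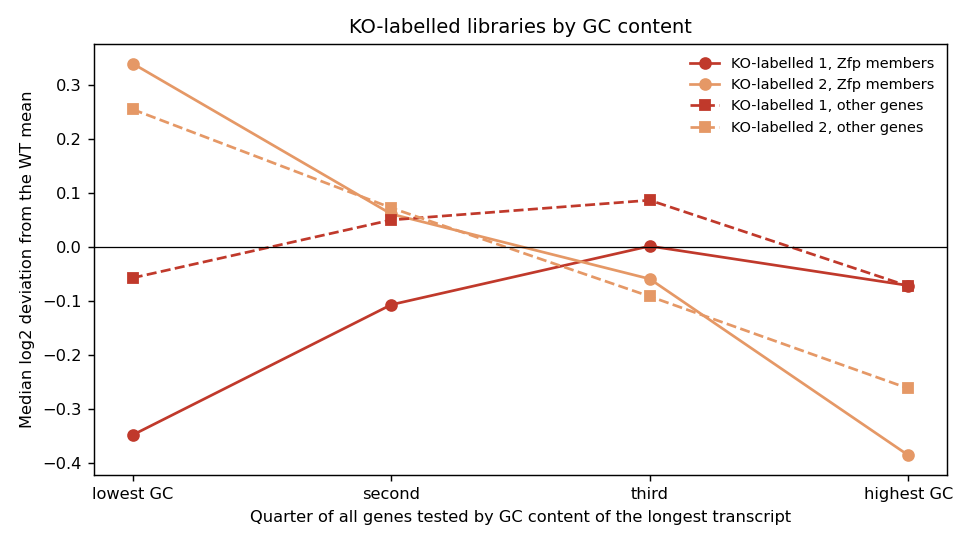
Median log2 deviation from the WT mean, relative to the median gene (vertical axis), in KO replicate 1 (red) and KO replicate 2 (orange), by 4 equal classes of all genes tested by GC content (horizontal axis), for members (solid lines) and other genes (dashed lines). In the lowest class the members are at -0.35 and 0.34 and the other genes at -0.06 and 0.25.

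After the correction for GC content and transcript length, the members' medians were -0.16 in KO replicate 1 with 0.01 in KO replicate 2, and the gap 0.17. The KRAB members stayed apart by 0.36, with -0.30 and 0.06, and the members without a KRAB box by 0.03. The libraries labelled KO differ, among other things, in the named genotype (Fbxo45 or Fbxo46) and the response to GC content. KO replicate 1 also has the skeletal muscle RNA and the lower sum of AT2 markers. Each of these is tied to 1 library, so they cannot be told apart.

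Members were called once either of the libraries labelled KO was left out. Without KO replicate 1, edgeR called 25 members (9.42% of all genes called), 15 higher (4.4%) and 10 lower (5.02%), with the lone library assumed to vary like the WT pair in this fit and the next. Without KO replicate 2, it called 23 members (14.8% of all genes called), 5 higher (7.65%) and 18 lower (7.17%). A KRAB box was found in 6 of the 15 and 2 of the 10 called without KO replicate 1, and in 0 of the 5 and 9 of the 18 called without KO replicate 2, against 120 of 272 members. Zfp53 was the 1 member called in both, with a log2 difference of 1.06 ± 0.26 without KO replicate 1 and of -1.41 ± 0.38 without KO replicate 2 (SE, edgeR adjusted p = 0.0174 and 0.0161). Zfp36 had 0.97 ± 0.16 without KO replicate 2 (edgeR adjusted p = 2.1e-04), the fit that holds the library with muscle RNA. Zfp410 had -2.64 ± 0.37 without KO replicate 1 (edgeR adjusted p = 2.29e-04). Of the other members named, Zfp800, Zfp948, Zfp91, Zfp148, Zfp292, Zfp867 and Zfp235 were called higher without KO replicate 1. In the same fit, Zfp64, Zfp771, Zfp622 and Zfp362 were called lower. Zfp219, Zfp516 and Zfp553 were called lower without KO replicate 2. Without WT replicate 1 or without WT replicate 2, no member was called (0.00905% of all genes in each fit).

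The cofactors through which KRAB proteins act were also not called in the main fit. The list of 17 genes gave 16 entries tested, from 15 genes, since Atf7ip has 2 entries, Uhrf1 was under the level rule and Fam208a is not listed under that symbol. Of the 16, 13 were higher and 3 lower, where 53.0% of all genes were higher, and 0 were called (0% of all genes). The median log2 difference was 0.17, against 0.02 over all genes. By limma on log2(FPKM + 1), 10 were higher and 6 lower, with a median of 0.11. In edgeR without the level filter, 1 of the 16 was called (6.25%, against 0.0326% of all genes). The split was 9 and 7 without KO replicate 1 (median 0.08) and 10 and 6 without KO replicate 2 (median 0.23). Without KO replicate 1, 3 of the 16 were called (18.8%, against 9.42% of all genes), and without KO replicate 2, 5 (31.3%, against 14.8%). Trim28, which binds the KRAB box, had 94.9 and 96.7 CPM in the libraries labelled KO, against 104.4 and 106.6 CPM in WT, a log2 difference of -0.14 ± 0.17 (SE). In FPKM it had 50.5 and 60.5 in the libraries labelled KO, against 44.9 and 58.1 in WT, a difference of 0.11 on log2(FPKM + 1), and after the correction for GC content and length it was at 0.13, so its direction was not settled. Setdb1, the histone H3 lysine 9 methyltransferase it recruits, had 63.5 and 50.5 CPM in the libraries labelled KO, against 55.7 and 51.2 CPM in WT, and overlapped. Morc3, an ATPase that helps silence retroelements, had 87.0 and 73.6 CPM in the libraries labelled KO, against 55.4 and 53.7 CPM in WT.

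Morc3 did not overlap between groups and had a log2 difference of 0.56 ± 0.19 (SE, edgeR adjusted p = 0.999). Smarcad1, a chromatin remodeller that binds Trim28, had 48.7 and 66.4 CPM in the libraries labelled KO, against 37.7 and 44.6 CPM in WT. Hdac2, a deacetylase of the NuRD complex, had 58.9 and 72.2 CPM in the libraries labelled KO, against 44.6 and 54.4 CPM in WT. In both genes each library labelled KO was above both WT libraries. The second Atf7ip entry, which has no position or GC content in GENCODE M21, had 1.37 and 0 CPM in the libraries labelled KO. Its WT values were 19.2 and 17.3 CPM, and its log2 difference was -4.58 ± 0.90 (SE, edgeR adjusted p = 0.999). The first entry, with 191.0 and 135.7 CPM in the libraries labelled KO and 170.9 and 127.8 CPM in WT, overlapped. Relative to the median gene, the cofactors' medians were both positive, 0.23 for KO replicate 1 with 0.11 for KO replicate 2, unlike those of the KRAB members. Single cofactors nevertheless lay on opposite sides of the WT mean, and in either direction. Cbx3 (-0.23, then 0.53) and Cbx5 (-0.26, then 0.30) were among those with the order of the KRAB members. Chd3 (0.58, then -0.07) and Chd4 (0.50, then -0.10) were among those with the reverse order. These values are on the CPM scale, and in FPKM Chd4 was above both WT libraries in each library labelled KO.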

How the data were processed

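Per the labels' protocols, stranded libraries were prepared from total RNA without ribosomal RNA, and 150 cycles were read. HISAT2 2.0.4, cutadapt 1.9.3, Cufflinks, Cuffdiff 2.2.1 and build mm10 appear in the submitters' processing notes, whose settings and annotation the sources used here do not give. The authors deposited FPKM and estimated counts per gene and library, per the file headers. Each library's estimated counts are multiples of 1 step, and division by it made 91.0% to 92.6% of values whole within 0.05, and these recovered fragments, rounded, were tested. A count of 0 allows up to 0.316 and 0.425 CPM in the KO libraries and 0.720 and 0.366 CPM in WT (3 fragments), which covers counting error only.

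Genes with FPKM of 1 or more in 2 libraries were fitted with edgeR 4.0.16 (TMM, quasi-likelihood, two-sided, R 4.3.3), Benjamini-Hochberg adjusted at 0.05; the fit was tested on simulated data. limma 3.58.1 on log2(FPKM + 1), which understates changes of low genes, and DESeq2 1.42.0 were alternatives. Coordinates, GC content, shared sequence and coding sequences came from GENCODE M21 (mm10), and promoters from RefSeq. Fingers and KRAB boxes were to be read from RefSeq proteins; translated GENCODE coding sequences were used instead. Locus entries of 57 members hold other genes too. Members, lists and the rule for named genes were chosen with earlier results of these data known. The rule takes the 8 members of smallest p in each direction, the 6 highest, the role groups, the 3 nearest the threshold on each side, the 4 whose units differ most, Zfp61 and the 4 cofactors of smallest p; those not named are covered by counts. The loess correction for GC content and length (span 0.3), the description of single libraries and the promoter words (extended while 1 base held over 60% of occurrences) were added after the data were seen.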

Additional observations from a re-analysis of the deposited data

How the results depend on the processing

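No member was called by limma, DESeq2, other scalings (DESeq2 size factors, library totals), the deposited estimated counts, other level filters, or the correction for GC content and length. The replicate numbers did not pair the libraries (correlation of deviations 0.0458), and with a replicate block 0 members were called, with a median log2 difference of -0.01. Leaving out 1 library moved the count of called members between 0 and 25, their median log2 difference between -0.20 and 0.16, and the count of called cofactors between 0 and 5; without KO replicate 1 the counts were 25 and 3 (9.42% of all genes called), without KO replicate 2 they were 23 and 5 (14.8%). The gap between the libraries labelled KO was 0.37 in the main setting. It was 0.31 on log2(FPKM + 1) and 0.27 for members with FPKM of 5 or more in 2 libraries. After the correction for GC content and length, which takes out each library's trend with both, it was 0.17. The causes of these shifts were not tested. The number of members was 309 at a minimum of 0.5 FPKM, 233 at 2 FPKM and 312 with 1 CPM in place of 1 FPKM. Of the 58 members named by rule, the sign turned for 9 without KO replicate 1, for 15 without KO replicate 2 and for 5 after the correction for GC content and length. The median member had 57 fragments in WT replicate 1, the shallowest library, which limits the precision of low members.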
